A study of Mus musculus with 5 samples.

Results

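The tripartite motif (TRIM) genes were followed in N2A cells (Neuro-2A), which derive from a mouse neuroblastoma, after knockdown of Upf1. They were defined as the protein-coding genes whose symbol is Trim followed by a digit, with a summed raw count of at least 50 over all 5 libraries, and Trim25 was left out. Of 68 such genes in the table, 43 met the rule and are the members described here. A further 24 had fewer reads, of which 12 had no read in any library. The members were thus chosen on their measured level, which is given below as a description. Both groups were cultured alike and transfected with 60 pmol of siRNA. The control group (siCtl, n = 2, replicates 1 and 3) received a commercial negative control siRNA, and the knockdown group (siUpf1, n = 3, replicates 1 to 3) received a single siRNA against Upf1, the RNA helicase at the centre of nonsense-mediated mRNA decay (NMD). All results come from 1 cell line and 1 targeting siRNA. Nothing in the labels says whether libraries of a group came from separate cultures, so p-values measure the spread between these libraries, which may be technical.

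TRIM proteins share an amino-terminal arrangement of a RING domain, B-boxes and a coiled coil. Most are ubiquitin ligases: the RING binds an E2 ubiquitin-conjugating enzyme, the coiled coil joins the protein into dimers, and the carboxy-terminal domain selects substrates and sorts the family into structural classes. A group with a PRY-SPRY domain is known for restriction of viruses and is induced by interferon, whereas members with NHL repeats or a COS box are known in neurons for RNA binding, axon specification and growth cone guidance.

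The libraries held between 20402205 and 27717594 assigned reads, of which the members took 0.229% to 0.243%. Upf1 itself fell to 46.8% of its siCtl level (log2 fold change -1.10, SE 0.051, DESeq2 adjusted p = 7.09e-101). Normalised counts of 11 neuroblastoma and neuron markers summed to between 34720 and 35058 in siCtl and between 38692 and 41225 in siUpf1. Of the 9 that passed the filter on low values 5 rose and 1 fell, where 22% of all tested genes were called higher and 22.9% lower. The neurofilament genes Nefm and Nefl had 7 and 14 reads in all. Striated muscle markers summed to between 9855 and 10117 in siCtl and between 7970 and 8138 in siUpf1, most of it from the embryonic myosin gene Myh3, while Myod1 was at 0. Macrophage markers summed to at most 62.8 in any library, with C1qa at 0. Fibroblast markers summed to between 288 and 306 in siCtl and between 223 and 259 in siUpf1, with Col3a1 and Lum at 0.

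After Upf1 knockdown, 12 of the 43 TRIM genes rose and 14 fell, and 17 were not called. All 43 passed the filter on low values. The call was an adjusted p under 0.05 in DESeq2's Wald test over all 15191 genes tested, with Benjamini-Hochberg adjustment. Among all genes tested, 44.9% were called, 22% as higher and 22.9% as lower, and among the 12730 tested protein-coding genes 51.2% were called. The share of TRIM genes called was 60.5%. The largest changes were decreases: 6 members fell by at least 1 on the log2 scale and 0 rose by that much, where 2.06% of all tested genes were called lower and 2.79% higher by at least 1. All 3 siUpf1 libraries lay above both siCtl libraries at 14 members and below both at 17. The corresponding shares over all tested genes were 34.3% and 35.2%, or 69.4% in either direction. The median log2 fold change of the members was -0.056, beside -0.0024 over all tested genes, and it was 0.055 over members with at least 500 summed counts, so that the sign of the median turned with the minimum. Without siUpf1 replicate 3, 10 members fell in place of 14. With a term for the replicate number in the model, 7 fell and 8 rose. Trim7, Trim30a and Trim34b, which fell in the main fit, had no adjusted p with that term or without siCtl replicate 3. By edgeR's quasi-likelihood test 27 members were called, the same 26 and Trim39, where 55% of all genes tested that way were called. These are bulk measurements, in which fewer cells of a kind and less RNA per cell cannot be told apart.

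**Figure D1:**
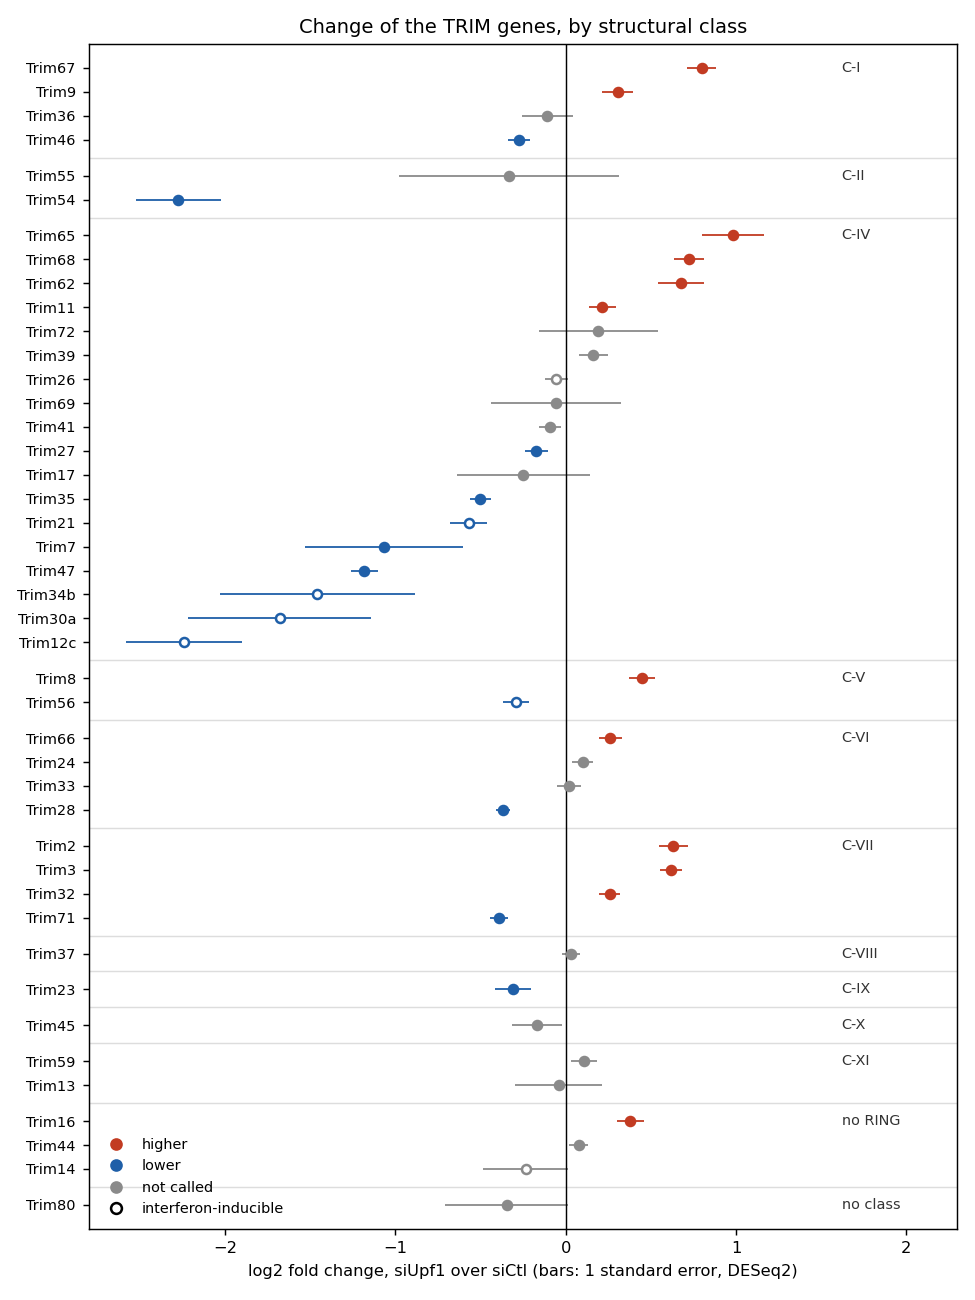
Log2 fold change of siUpf1 over siCtl for each of the 43 TRIM genes (x axis), grouped by structural class, with bars of 1 standard error from DESeq2. Red points rose, blue points fell, grey points were not called, and open symbols mark interferon-inducible members. The 6 decreases of at least 1 log2 unit are in classes C-II and C-IV, and no red point reaches 1.

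The most abundant member was Trim28, which encodes the co-repressor KAP1 that KRAB zinc finger proteins bring to retroelements and imprinted loci. Trim28 (ENSMUSG00000005566.14; chromosome 7, 12999114 to 13031035, plus strand, GRCm38) had 14412 and 14836 normalised read counts in siCtl and 11368, 11607 and 11080.2 in siUpf1. Both siCtl libraries were above all siUpf1 libraries, and the level in siUpf1 was 77.6% of that in siCtl (log2 fold change -0.37, SE 0.041, DESeq2 adjusted p = 3.11e-18). Trim44, a deubiquitinase-like member without a RING, had 4088 and 3717 normalised counts in siCtl and 4249, 4138 and 3966 in siUpf1. Trim37, which encodes a ligase that limits centriole assembly, had 3523 and 3484 in siCtl and 3426, 3655 and 3676 in siUpf1. The groups overlapped at both genes, and neither was called (log2 fold changes 0.08 and 0.03, DESeq2 adjusted p = 0.276 and 0.666).

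Levels of different genes were compared per kilobase of annotated exon. On that scale Trim28 stood at 3517 ± 72.1 normalised counts per kilobase in siCtl (SD, n = 2). Trim35 (718 ± 15.1), Trim47 (697 ± 15.4) and Trim44 (691 ± 46.5) came next and did not differ from each other beyond their spread. Trim30a (7.92 ± 1.46), Trim55 (6.13 ± 4.15) and Trim7 (5.15 ± 0.449) were the lowest, and the spread of Trim55 covered the other two. In all, 24 members averaged 1000 or more normalised counts and 11 averaged under 100.

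**Figure D2:**
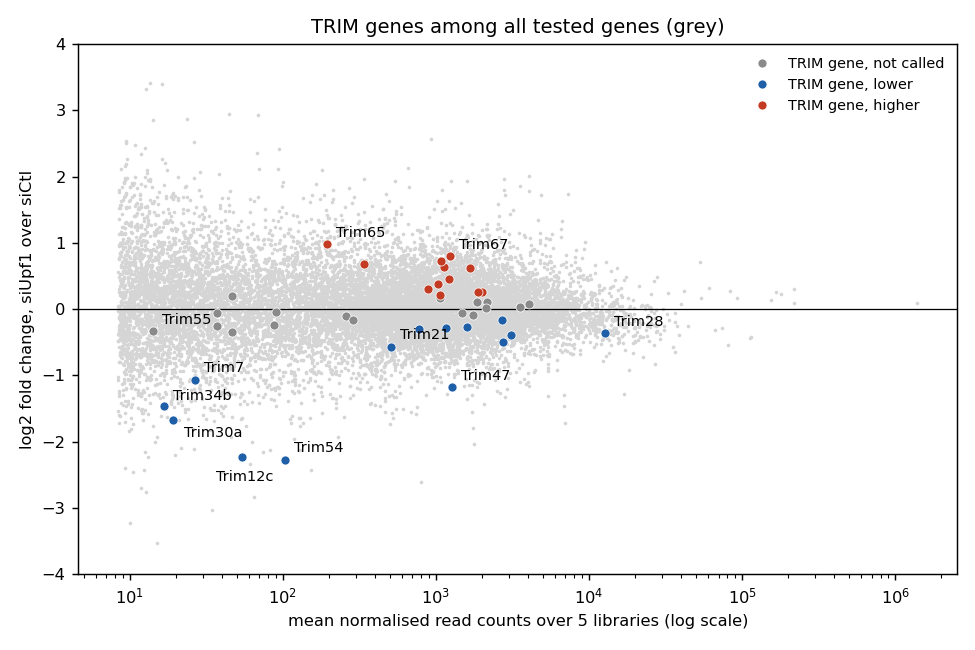
Mean normalised read count over the 5 libraries (x axis, log scale) against log2 fold change of siUpf1 over siCtl (y axis) for the 15191 tested genes in grey and the 43 TRIM genes in colour. A total of 2 tested genes lie outside the plotted range of log2 fold changes. Trim28 lies at the right at -0.37, and 5 of the 6 lowest TRIM genes have means under or near 100 normalised counts, with Trim47 as the exception.

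Trim54 had the largest decrease. It encodes MURF3, a COS-box protein that stabilises microtubules and works at the sarcomere of striated muscle. Trim54 (ENSMUSG00000062077.14; chromosome 5, 31116712 to 31137630, plus strand) had 199 and 196 normalised counts in siCtl and 34.7, 51.5 and 38.3 in siUpf1. The knockdown libraries stood at about 21% of the control level and did not approach it (log2 fold change -2.27, SE 0.25, DESeq2 adjusted p = 1.18e-18). Over all alternatives the log2 fold change stayed between -2.44 and -2.16. The other MURF gene among the members, Trim55, was the member with the fewest reads (71 in all) and was not called (log2 fold change -0.33, SE 0.65, DESeq2 adjusted p = 0.723). Among the muscle markers Des, the desmin gene, fell by 1.77 on the log2 scale and Myh3 by 0.35, Actn2, Acta1, Tnnt1 and Mylpf were not called, and the part of these genes in the value of Trim54 was not tested. An antisense gene, Gm15469, covers 26.6% of the exon bases of Trim54 on the opposite strand, and the counting used strand.

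Trim47 was the member with the largest decrease among those of high level. The encoded PRY-SPRY ligase is known from endothelial and tumour cells. Trim47 (ENSMUSG00000020773.11; chromosome 11, 116105752 to 116127210, minus strand) had 1936 and 1876 normalised counts in siCtl and 786, 909.9 and 831 in siUpf1. The highest siUpf1 library was under the lowest siCtl library by far more than the spread within either group (log2 fold change -1.18, SE 0.079, DESeq2 adjusted p = 4.31e-49).

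Trim65, which lies on the same strand and overlaps Trim47 by 5.365 kb, moved the other way. The encoded ligase ubiquitinates the double-stranded RNA sensor MDA5. Trim65 (ENSMUSG00000054517.9; chromosome 11, 116121846 to 116131128, minus strand) had 138 and 106 normalised counts in siCtl and 239, 229.7 and 251 in siUpf1, the largest increase among the members (log2 fold change 0.98, SE 0.18, DESeq2 adjusted p = 4.90e-07). Exons of both genes share 225 bases on the same strand, 8.23% of the exon bases of Trim47 and 3.83% of those of Trim65, and how reads in these bases were assigned is uncertain. Trim21 and Trim68, which lie 112 kb apart on chromosome 7, also moved in opposite directions.

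A total of 7 members are known to be induced by interferon, and 5 of them fell while 0 rose. Among all tested genes 22.9% were called lower and 22% higher. The list of members was compiled with a general decrease of interferon-stimulated genes in these libraries already known. It is thus not independent evidence of a direction. Its median log2 fold change was -0.57, beside 0.03 for the remaining 36 members, of which 12 rose and 9 fell. The count of 5 decreases became 2 without siCtl replicate 1 and 3 without siCtl replicate 3, settings in which Trim30a and Trim34b had no adjusted p, and 4 without any 1 siUpf1 library. In an accompanying list of 20 interferon-stimulated genes, 16 of 19 tested fell and 0 rose, with a median of -1.10. Among its genes with a DESeq2 adjusted p, the largest decreases were those of Rsad2, the antiviral enzyme viperin (-2.61), and Ifi44 (-2.01), and the smallest called were those of Irf9 (-0.27) and Bst2 (-0.19). The untested gene, Zbp1, named after its values were seen, had 11 and 21 reads in siCtl and 3, 0 and 0 in siUpf1.

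Trim12c fell most in this group. It belongs to the mouse Trim5-like genes, whose proteins act on retroviral capsids and in innate signalling. Trim12c (ENSMUSG00000057143.15; chromosome 7, 104338754 to 104353362, minus strand) had 91.2 and 112 normalised counts in siCtl and 17.8, 26.4 and 21.4 in siUpf1 (log2 fold change -2.24, SE 0.34, DESeq2 adjusted p = 4.70e-10). Its lowest control value was more than 3 times its highest knockdown value. Trim21, which encodes a cytosolic antibody receptor that targets antibody-bound virus to the proteasome, had 649.9 and 617 normalised counts in siCtl and 449, 407 and 424 in siUpf1. The groups did not overlap (log2 fold change -0.57, SE 0.11, DESeq2 adjusted p = 9.74e-07).

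Other called members of this group had few reads or small changes. Trim30a, known to restrain Toll-like receptor signalling, had 28.3 and 36.8 normalised counts in siCtl and 9.78, 10.04 and 10.7 in siUpf1. Trim34b had 29.4 and 24.5 in siCtl and 11.6, 8.79 and 8.91 in siUpf1. Both were under the mean level set for showing single libraries and are shown because of their size, a choice made after their values were seen. Both were called by DESeq2 (log2 fold changes -1.68 and -1.46, SE 0.54 and 0.57, adjusted p = 0.00541 and 0.0267). Trim34b lost its call without any 1 of the siUpf1 libraries (adjusted p up to 0.104 over the alternatives). Trim56, whose product acts in antiviral signalling, was called lower (log2 fold change -0.29, SE 0.077) and lost its call without siCtl replicate 1 (DESeq2 adjusted p = 0.0665). Trim14 and Trim26 were not called (log2 fold changes -0.23 and -0.05). All siUpf1 libraries lay below both siCtl libraries at each, as they did at 35.2% of all tested genes.

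**Figure D3:**
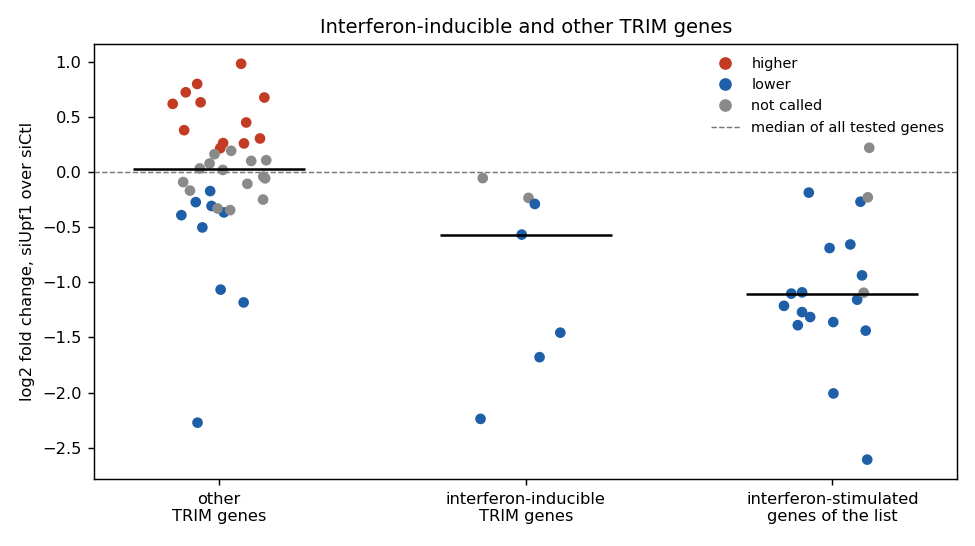
Log2 fold change of siUpf1 over siCtl (y axis) for the 36 other TRIM genes, the 7 interferon-inducible TRIM genes and the 19 tested genes of the interferon-stimulated list, 1 point per gene, with the group median as a black bar. The medians are 0.03, -0.57 and -1.10, and the interferon-inducible TRIM genes all lie below the median of all tested genes (dashed line).

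Trim12c, Trim30a and Trim34b lie together on chromosome 7 between 104218793 and 104507849, in a run of 10 Trim genes. They were the only 3 of the 10 to reach the read minimum, and all 3 fell. Each of the 3 has copies of the same number in this run: Trim12a for Trim12c, Trim30b to Trim30d for Trim30a, and Trim34a for Trim34b. The paper's stated counting settings name no option to split reads between genes. Reads shared by near-identical copies can thus be discarded, and the levels of these 3 genes are uncertain.

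Promoters were examined for the core of the interferon-stimulated response element, the site at which interferon-activated transcription factors bind. The letters searched were GAAANNGAAA on both strands, and matches were allowed to overlap. RefSeq promoter windows of 300 bases (250 before the start site and 50 after it, GRCm38.p6) were found for 32 of the 43 members. The core was present in a window of 4 of the 6 interferon-inducible members with a window (Trim12c, Trim21, Trim26 and Trim30a) and of 1 of the other 26 (Trim2, which rose). It was present in a window of 3.99% of all RefSeq genes with a promoter and of 9 of the 14 genes of the interferon-stimulated list that had one. A match is a description of the letters and does not show that a factor binds. The windows of the 3 called interferon-inducible members that hold the core are shown 5′ to 3′ in the direction of the gene, with the matching letters in capitals. They are those of Trim12c (chr7:104353300-104353599, minus strand), Trim30a (chr7:104465144-104465443, minus strand) and Trim21 (chr7:102565433-102565732, minus strand).
Trim12c: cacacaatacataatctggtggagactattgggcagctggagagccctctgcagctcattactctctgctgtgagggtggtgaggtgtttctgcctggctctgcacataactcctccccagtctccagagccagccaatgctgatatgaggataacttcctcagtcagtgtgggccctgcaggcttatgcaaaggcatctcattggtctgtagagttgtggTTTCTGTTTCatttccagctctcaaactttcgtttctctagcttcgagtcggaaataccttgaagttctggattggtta
Trim30a: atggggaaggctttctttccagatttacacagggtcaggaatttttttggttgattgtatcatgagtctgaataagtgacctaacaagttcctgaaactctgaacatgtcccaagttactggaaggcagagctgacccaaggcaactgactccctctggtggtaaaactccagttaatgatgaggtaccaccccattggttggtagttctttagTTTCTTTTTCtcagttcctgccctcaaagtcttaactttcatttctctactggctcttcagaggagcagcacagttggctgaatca
Trim21: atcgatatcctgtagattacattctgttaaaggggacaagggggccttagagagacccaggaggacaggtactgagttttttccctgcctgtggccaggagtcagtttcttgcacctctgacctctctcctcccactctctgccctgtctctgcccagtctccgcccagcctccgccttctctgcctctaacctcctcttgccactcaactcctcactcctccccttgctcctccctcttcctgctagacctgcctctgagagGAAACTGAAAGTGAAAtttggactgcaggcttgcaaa

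In Trim12c and Trim30a the core is read on the opposite strand and begins 29 and 36 bases before the start site. In Trim21 a pair of overlapping matches begins 13 and 19 bases after it. Trim30a has a second window (chr7:104446076-104446375) with 1 match, and Trim34b and Trim56, which fell as well, had no match in theirs.

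Further decreases were found in members outside the interferon group. Trim35, first described as a blood lineage switch gene, had 3365 and 3266 normalised counts in siCtl and 2274, 2513 and 2246 in siUpf1. All 3 knockdown libraries were below both controls (log2 fold change -0.50, SE 0.062, DESeq2 adjusted p = 5.36e-15). Trim7, which encodes a glycogenin-interacting ligase, had 36.7 and 41.5 normalised counts in siCtl and 24.9, 12.6 and 17.8 in siUpf1, values that were also chosen for display after they were seen. Its call was at the edge of the threshold (log2 fold change -1.07, SE 0.46, DESeq2 adjusted p = 0.0470), with adjusted p-values between 0.00487 and 0.178 over the alternatives. The calls of Trim71, the stem-cell gene Lin41 (-0.39), Trim23, which carries an ARF domain (-0.31), Trim46, which organises microtubules of the axon initial segment (-0.27), and Trim27 (-0.17) completed the decreases. Trim23 and Trim27 lost their calls without siCtl replicate 3 (DESeq2 adjusted p = 0.214 and 0.423). Trim23 also lost it without siUpf1 replicate 2 or 3, and Trim27 without siUpf1 replicate 1 or 3.

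**Figure D4:**
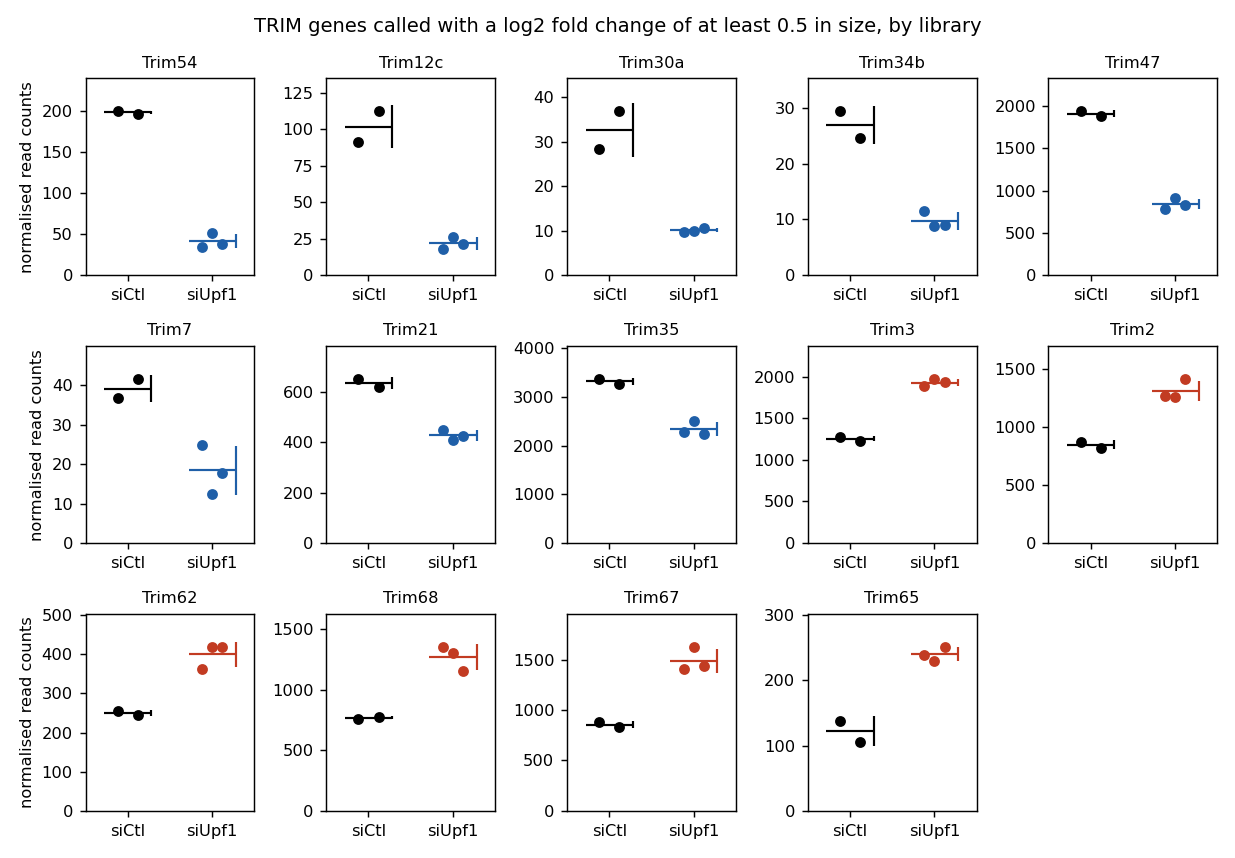
Normalised read counts (y axis, linear from 0, a separate scale for each gene) of the 14 TRIM genes called with a log2 fold change of at least 0.5 in size, in siCtl (black, n = 2) and siUpf1 (n = 3, blue where the gene fell and red where it rose). Points are libraries, horizontal bars are means and vertical bars span 1 SD to each side. The groups do not overlap at any of these genes.

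Among the increases, 3 were in the NHL-repeat class, whose members bind RNA or cytoskeletal cargo. Trim2, which ubiquitinates neurofilament light chain and protects axons, had 873 and 819.8 normalised counts in siCtl and 1264, 1256 and 1412 in siUpf1 (log2 fold change 0.63, SE 0.084, DESeq2 adjusted p = 6.46e-13). Trim3, a regulator of postsynaptic scaffold proteins, had 1279 and 1231 in siCtl and 1881, 1970.5 and 1932 in siUpf1 (log2 fold change 0.62, SE 0.067, DESeq2 adjusted p = 6.07e-19). Both reached about the same relative level, 155% and 154% of siCtl. Trim32, linked to muscle and to neuronal differentiation, rose less (0.26, SE 0.062). Trim71, the fourth gene of the class, fell, so its members did not share a direction.

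Trim67 and Trim9, close paralogs of class C-I that act in netrin-dependent axon guidance, were both called higher. Trim67 (ENSMUSG00000036913.15; chromosome 8, 124793092 to 124834713, plus strand) had 877 and 830.2 normalised counts in siCtl and 1403, 1627 and 1435 in siUpf1 (log2 fold change 0.80, SE 0.084, DESeq2 adjusted p = 5.48e-20). Its lowest siUpf1 library was well above its higher siCtl library. Trim9 had a log2 fold change of 0.31 (SE 0.089) and lost its call without siCtl replicate 3 (DESeq2 adjusted p = 0.134). In the same class Trim46 fell and Trim36 was not called (-0.11, SE 0.15).

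In the PRY-SPRY class, 4 members rose. Besides Trim65, Trim68, a ligase described as a co-regulator of the androgen receptor, had 762 and 777 normalised counts in siCtl and 1356, 1307 and 1153 in siUpf1 (log2 fold change 0.72, SE 0.089, DESeq2 adjusted p = 5.13e-15). Trim62, which encodes the polarity regulator DEAR1, had 255 and 245 in siCtl and 363, 418 and 419 in siUpf1 (log2 fold change 0.68, SE 0.14, DESeq2 adjusted p = 3.95e-06). Neither gene's groups came near each other. Trim11, which targets misfolded proteins, was called with a smaller change (0.22, SE 0.081) and lost its call without siCtl replicate 1, siUpf1 replicate 2 or siUpf1 replicate 3 (DESeq2 adjusted p = 0.323, 0.0927 and 0.0640).

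The smaller increases elsewhere were those of Trim8 (0.45), which modulates cytokine signalling, Trim16 (0.38), a member without a RING that acts in autophagy of damaged lysosomes, and Trim66 (0.26), a testis-rich relative of Trim28. Trim66 lost its call without siCtl replicate 3 (DESeq2 adjusted p = 0.138).

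No class was tested as a set, and the numbers in each are small. Of 18 members of class C-IV, which have a RING and a PRY-SPRY domain without the COS box of class C-I, 4 rose and 8 fell. Their median log2 fold change was -0.13, with a range from -2.24 to 0.98. By comparison, 22% of all tested genes were called higher and 22.9% lower. The count of 8 became 5 without siUpf1 replicate 3, and 4 with a term for the replicate number in the model. Without siCtl replicate 3 the median was -0.08. Trim7, Trim30a and Trim34b had no adjusted p in that setting or with that term. In class C-VI, the chromatin-bound TIF1 proteins with a PHD finger and bromodomain, Trim66 rose, Trim28 fell, and Trim24 and Trim33 were not called (0.10 and 0.02). In class C-V, Trim8 rose and Trim56 fell. The filamin-domain gene Trim45 (-0.17) and the transmembrane members Trim13 (-0.04) and Trim59 (0.11) were not called.

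The remaining members that were not called were of 2 kinds. Trim17 (-0.25), Trim80 (-0.34), Trim69 (-0.06) and Trim72 (0.19) had means under 100 normalised counts and standard errors of 0.35 to 0.39, so a change of the size seen at many called members was not detectable at this depth. Trim17 also shares 708 exon bases, 18.95% of its total, with the histone gene Hist3h2a on the same strand. Trim24, Trim26, Trim33, Trim37, Trim41, Trim44 and Trim59 had means over 1000 and standard errors of 0.054 to 0.076. Trim39 (0.16) was called by edgeR (adjusted p = 0.0272) and not by DESeq2 (adjusted p = 0.103). A total of 5 members had groups that did not overlap and were not called, namely Trim14, Trim24, Trim26, Trim39 and Trim41. Over all tested genes the groups did not overlap at 69.4%, while 44.9% were called.

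At the read minimum, Trim55 (71 reads), Trim34b (84) and Trim30a (97) were just inside, and Trim34a (46), Trim63 (45) and Trim43a (22) just outside. Trim34b had 54 reads in siCtl and 30 in siUpf1, and Trim30a had 66 and 31. With all 5 libraries at the siUpf1 mean their sums would have been 50 and 51.7, at or just over the minimum.

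Features of the transcripts that can bear on NMD or on the siRNA were taken from GENCODE M21, with 1 representative transcript per gene. Long 3′ untranslated regions (3′ UTRs) and exon junctions downstream of a stop codon are known to make mRNAs sensitive to NMD. The median 3′ UTR was 1233 nt in the 12 members that rose, 1404 nt in the 14 that fell and 1298 nt in the 17 not called. Over tested protein-coding genes these medians were 1452, 809 and 887 nt. A transcript annotated as an NMD substrate was present at 2 of the 12 members that rose, 3 of the 14 that fell and 4 of the 17 not called, or 20.9% of all members beside 28.4% of tested protein-coding genes. The counts are per gene and do not separate such isoforms.

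The siRNA can itself lower mRNAs that match bases 2 to 8 of either of its strands, its seed. The matching 7-mers are GATAATT for the antisense strand and AACCTTG for the sense strand. A representative 3′ UTR with either 7-mer was found for 1 of the 12 members that rose (Trim67), 5 of the 14 that fell (Trim12c, Trim23, Trim35, Trim56 and Trim71) and 7 of the 17 not called. The share over all members was 30.2%, beside 15.7% of tested protein-coding genes. Among those protein-coding genes it was 16.0% where they rose, 19.4% where they fell and 13.5% where they were not called. Members also had longer 3′ UTRs, with a median of 1283 nt beside 984 nt over tested protein-coding genes. The part of length in these shares was not tested. Trim54, Trim47, Trim30a, Trim34b, Trim7, Trim21 and Trim28, among others, had neither 7-mer. The part of these sites in the changes was not tested.

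Genes that work with TRIM proteins, from lists compiled with the family, were also counted. DESeq2 called 44.9% of all genes it tested, and edgeR 55%. Of 10 tested E2 ubiquitin-conjugating enzymes and E2 variants that serve RING ligases, 0 rose and 1 fell, Ube2d3 (log2 fold change -0.16, SE 0.045, DESeq2 adjusted p = 0.000872), and the median was 0.03. By edgeR 3 fell, with Ube2d2a and Ube2w in addition (adjusted p = 0.0218 and 0.0394), and 0 fell by DESeq2 without siCtl replicate 1. Of 8 tested genes for co-repressors that work with TRIM28, 0 rose and 1 fell, Atf7ip, a cofactor of the histone methyltransferase SETDB1 (log2 fold change -0.47, SE 0.06, DESeq2 adjusted p = 6.52e-14). By edgeR 3 genes of this list were higher, the heterochromatin protein genes Cbx1, Cbx3 and Cbx5 (adjusted p = 0.0291, 0.0247 and 0.0395), and 2 lower, Atf7ip and Mphosph8 (adjusted p = 0.0198 for the latter). Their groups did not overlap, as at 69.4% of all tested genes. Genes of these lists called by edgeR alone are named after their values were seen. The list had a median of -0.04, and Setdb1 itself was not called (-0.03, SE 0.051). Among family members under other symbols, the nuclear body gene Pml was called lower (-0.20, SE 0.083, DESeq2 adjusted p = 0.0330), Mid1 and Mid2 were not called (0.05 and 0.04), and Mefv had no read. Mid1 had 44 reads in all. The call of Pml was lost in 8 of 11 alternatives, those that left out any 1 library among them.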

How the data were processed

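Polyadenylated RNA from N2A cells was sequenced in 5 strand-specific libraries (2 siCtl, 3 siUpf1), and each library was grouped by its label. The authors deposited raw counts of reads for every gene. They trimmed reads with fastp, aligned them to GRCm38.p6 with STAR and counted exonic reads on the reverse strand with featureCounts (Subread 1.6.4, per the labels) against GENCODE M22 or M25. Since a count table does not mark PCR duplicates, true errors can exceed those of counting.

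Groups were compared with DESeq2 1.42.0 in R 4.3.3 by its Wald test. The study's methods name DESeq2 with an adjusted p threshold of 0.05 and not the kind of test. The model had no term besides the group, size factors were medians of ratios, independent filtering was on, and p-values were adjusted by Benjamini-Hochberg over all tested genes (threshold 0.05). Each log2 fold change is siUpf1 relative to siCtl, and SE is the standard error of the fit. Normalised counts are counts divided by size factors. An exact permutation of 2 against 3 libraries cannot go below p = 0.1 and was not used. All pairs of libraries differed by more than sampling noise (chi-square per degree of freedom 6.27 to 26.4 within groups and 53.7 to 69.6 between groups) and were kept as separate replicates. Scripts were tested on simulated counts. Gene identifiers were matched to GENCODE M21 for 99.8% of 55573 genes.

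Members, structural classes, marker and partner lists were chosen with earlier results of these data known. Every member could be named. Single-library values were given for called members with a log2 fold change of at least 0.5 in size that averaged 50 or more normalised counts, and for the 3 most abundant. Exceptions are marked. Alternatives were edgeR 4.0.16, TMM or total-count size factors, at least 10 counts in 2 libraries, no independent filtering, a replicate block, omission of each library and a member minimum of 500 counts.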

Additional observations from a re-analysis of the deposited data

How the results depend on the processing

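The log2 fold change of Upf1 kept its direction and its call under all 11 alternatives, and the counts of members that rose and of members whose groups did not overlap stayed within 1.5 times their values. The count of members that fell, 14, became 7 with the replicate block, and lay between 9 and 12 when each library was left out. The median log2 fold change of the members was -0.035 with total-count size factors and 0.055 with at least 500 summed counts, and lay between -0.093 and -0.031 without each library. Of the 7 interferon-inducible members, 2 fell under the replicate block and between 2 and 4 without each library, and their median was -0.54 with total-count size factors, -0.54 under the block, and between -0.61 and -0.53 without each library. In the main fit this median was the value of Trim21 (-0.57), and the 7 members ran from -2.24 to -0.05. By shared replicate number, deviations from the group means had correlations of -0.086 (number 1) and -0.075 (number 3) across genes. Genes are not independent replicates. Deviations of the 2 siCtl libraries mirror each other, so these values cannot decide whether the numbers pair the libraries. Replicate number 2 occurred only in siUpf1, so under the block that library could not inform the comparison of the groups. Why calls were lost under the block was not tested. The block left 8 members higher.

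Over 460 values of single members under the alternatives, 29 lost their call, 1 gained it and 6 changed sign, all 6 at members that were not called. These members were Trim69, Trim33, Trim17, Trim13 and Trim36, whose log2 fold changes without each library lay between -0.18 and 0.055, -0.048 and 0.056, -0.50 and 0.051, -0.19 and 0.091, and -0.21 and 0.0028. Trim33 changed sign without siCtl replicate 1 (-0.022) and without siUpf1 replicate 1. Among settings that gave an adjusted p, Trim7, Trim27, Trim23 and Trim11 lost their call most often. Trim34b lost it without each siUpf1 library and had no adjusted p under the block or without either siCtl library. Trim56, Trim9 and Trim66 lost it under the block and without 1 siCtl library, and Trim46 and Trim32 under the block alone. Trim55, Trim30a and Trim7 also had no adjusted p under some settings. The cause was not tested. Without a siCtl library 1 remained, whose spread was assumed to be that of siUpf1. Depth limits the 11 members under 100 normalised counts.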
